A study of Mus musculus with 6 samples.

Results

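Heat shock and chaperone genes were followed in microglia, the resident macrophages of the brain and spinal cord, in the naive state and at peak disease in experimental autoimmune encephalomyelitis (EAE), an immune-mediated model of multiple sclerosis. The members were all genes whose symbols belong to the Hspa, Hspb, Hspd1, Hspe1, Hsph1 and Hsp90 series, the Dnaja, Dnajb and Dnajc series or the Cct series, with at least 50 RNA-seq counts over both libraries. Of 91 genes with such a symbol, 70 reached this minimum, among 14367 genes of any kind that did so and 42303 gene rows in all. By textbook location, 38 were placed in the cytosol and nucleus, 14 in the endoplasmic reticulum (ER) and 8 in mitochondria; 8 specialised or less certain genes were kept apart as other, and 2 were pseudogenes. RNA was sequenced in 1 library per condition, and methylated DNA was captured with a methyl-CpG binding domain and sequenced (MiGS) in 2 libraries per condition.

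Every sample was on a C57Bl/6 background and was drawn from a pool of 30 mice per condition. EAE was induced at 24 to 28 weeks of age with residues 35 to 55 of myelin oligodendrocyte glycoprotein, in mice of genotype Ccr2rfp/+::Cx3cr1gfp/+, in which a red and a green reporter each take the place of 1 copy of a chemokine receptor gene. Naive cells are described as taken before induction; their genotype and age are not stated separately in the sources used here. Peak was a disease stage set by the course of daily clinical scores. Cells were sorted on F4/80 and CD45 after homogenisation and a Percoll gradient, and RNA and DNA came from the same samples.

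Chaperones bind unfolded or partly folded proteins and help them reach or regain their folded state. Hsp70 proteins bind short exposed stretches in cycles of ATP hydrolysis, J proteins (the Dnaja, Dnajb and Dnajc genes) deliver clients and start hydrolysis, and Hsp110 proteins exchange the nucleotide. Hsp90 acts on nearly folded clients such as kinases and receptors, small heat shock proteins hold aggregating proteins without ATP, and the chaperonins (CCT in the cytosol, Hspd1 with Hspe1 in mitochondria) enclose a client in a chamber. Cytosolic heat shock genes are classically switched on by heat shock factor 1 through heat shock elements, whereas ER chaperone genes answer to the unfolded protein response.

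The RNA-seq libraries held 31282093 naive and 36561934 peak counts. Counts were scaled by TMM (a trimmed mean of gene ratios), and differences are given as the log2 ratio of peak over naive or as a fold of scaled counts, with exact (Clopper-Pearson) 95% intervals that cover counting error only. With 1 library per condition there was no replicate check and no test, so the values describe these libraries. In such bulk RNA, fewer cells of a type and less RNA per cell cannot be told apart. FPKM, as the authors computed it, is fragments scaled to a length per gene and to library depth. Comparisons of FPKM between genes rest on that length. Markers of other cells moved between the libraries. In summed FPKM 7 microglial markers went from 13424 to 8748, 8 monocyte markers from 7.20 to 118 and 5 endothelial markers from 27.0 to 11.3. The 5 astrocyte markers went from 95.8 to 47.2 and 6 markers of dividing cells from 3.16 to 84.3. The 4 oligodendrocyte markers found went from 11.4 to 8.10, the 5 ciliated ependymal markers from 3.12 to 1.25, and the 5 neuron markers from 1.47 to 1.40. The 6 neutrophil markers summed to 26.2 and 26.9, with Cxcr2 and Mmp8 at least 2-fold higher and Camp and Ngp at least 2-fold lower. The T cell markers Cd3e, Cd3g, Cd8a and Trbc2 had no naive count, and the 6 markers of that list summed to 0.963 and 3.21. The part that these other cells had in the chaperone values was not tested.

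As a group the chaperone genes had a median close to that of the whole transcriptome. They took up 0.956% of naive and 0.902% of peak counts, and their median log2 ratio was 0.001, beside -0.003 for all genes. At least 2-fold higher in the peak library were 2 of 70 (2.86%), against 11.6% of all genes, and at least 2-fold lower were 5 of 70 (7.14%), against 9.35%. At a limit of 1.5-fold, 8 were higher (11.4%, against 20.4% of all genes) and 10 lower (14.3%, against 18.4%). Below a ratio of 0 lay 35 of 70, against 50.2% of all genes. Scaling moves this split: 40 of 70 lay below 0 with library totals and 31 with DESeq2 size factors, since the median of all genes moved by -0.09 and 0.07. With upper quartile scaling that median moved by -0.14 and 41 chaperone genes lay below 0.

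Within the group the compartments and families differed more than the whole did. The cytosolic median was -0.19, the ER median -0.08 and the mitochondrial median 0.16. The summed counts of the 38 cytosolic genes went from 146983 to 153430, 1.05-fold lower after scaling (interval of the ratio 0.943 to 0.957). The 14 ER genes went from 122828 to 136425 counts (1.01-fold, 1.003 to 1.02) and the 8 mitochondrial genes from 11618 to 15432 (1.21-fold, 1.18 to 1.24). Of the 38 cytosolic genes 2 were at least 2-fold higher (5.26%, against 11.6% of all genes) and 4 lower (10.5%, against 9.35%). The remaining member past 2-fold was of the group kept apart. None of the 14 ER genes or the 8 mitochondrial genes passed 2-fold in either direction, and these sets are small. The ER median lay 0.11 above the cytosolic one, and this order is not firm: with a minimum of 200 counts, or with the genes kept apart as other added to the cytosol, it lay 0.05 below (difference -0.05). The mitochondrial median lay 0.35 above the cytosolic one. Scaling moves every ratio alike and cannot change this distance. Under the settings that changed which genes were compared, the mitochondrial median stayed above, by 0.19 to 0.71. The mitochondrial genes were not uniform: the 3 that are not J proteins had a median of 0.48 and the 5 J proteins -0.20.

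**Figure D1:**
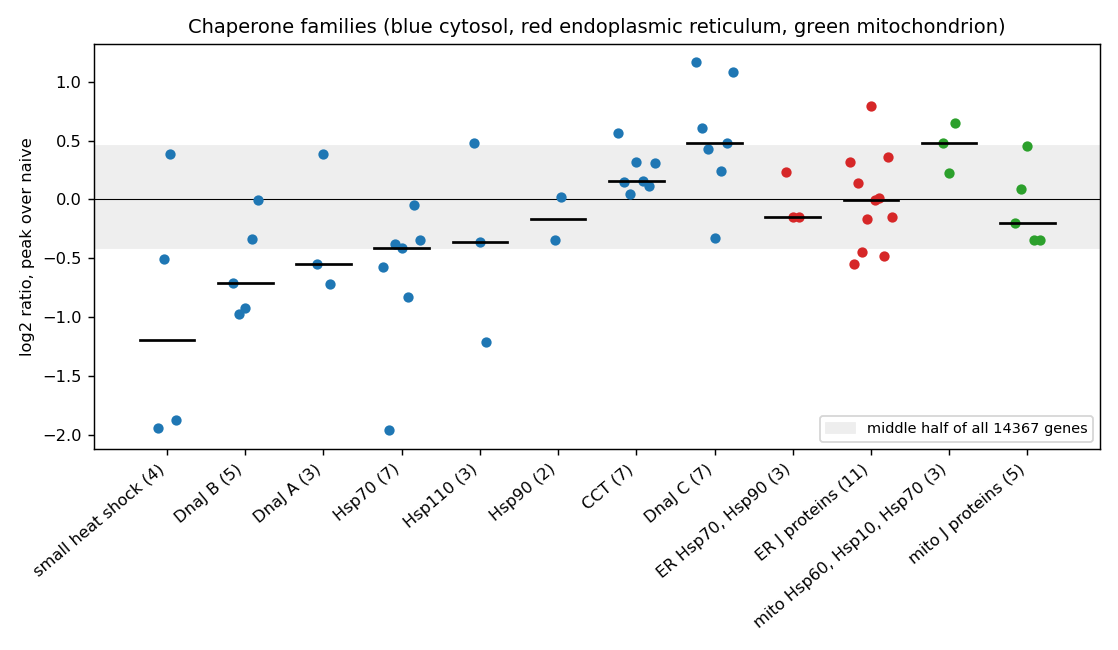
Log2 ratio of peak over naive (vertical axis) for the chaperone families of the cytosol (blue), ER (red) and mitochondrion (green), with 1 point per gene, a black bar at the family median and the number of genes in brackets. The grey band spans the quartiles of all 14367 genes, from -0.41 to 0.46; the cytosolic small heat shock, DnaJ B, DnaJ A and Hsp70 medians lie at or below its lower edge, and the cytosolic DnaJ C and the mitochondrial Hsp60, Hsp10 and Hsp70 medians lie just above its upper edge.

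Of the 4 cytosolic small heat shock genes 3 lay below 0 and 2 were at least 2-fold lower in the RNA at peak. Hspb1 (chr5:135887919-135889563, RefSeq GRCm38.p6), the ATP-independent holdase Hsp27, had 310 naive and 88 peak counts, at 9.61 and 2.34 FPKM. This is 3.87-fold lower in the peak library (3.05 to 4.96). Hspb8 (chr5:116408491-116422864), which works with the cochaperone Bag3 in clearing misfolded proteins, had 175 and 52 counts and was 3.70-fold lower (2.70 to 5.14). Hspb3 went from 351 to 271 counts (1.42-fold lower, 1.21 to 1.67). Hspb6, the other cytosolic member, had 99 and 142 counts and a ratio on the other side of 0 (0.38), with an interval of 1.003 to 1.71-fold. Together the 4 genes held 935 naive and 553 peak counts. The same limit of 2-fold was passed downward by all 5 endothelial, 3 of 5 astrocyte, 2 of 4 oligodendrocyte, 2 of 6 neutrophil and 1 of 7 microglial markers. The 1 ciliated ependymal marker with at least 50 counts passed it downward too. The astrocyte marker Gfap passed it upward (89 and 258 counts), as did 2 neutrophil, 7 of 8 monocyte and all 6 dividing-cell markers. Both T cell markers with at least 50 counts also passed it upward, and no neuron marker passed it. The part of these cells in the small heat shock values was not tested.

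All 7 cytosolic Hsp70 genes had ratios below 0 (median -0.42), Hspa2 alone turning above 0 with DESeq2 size factors. The constitutive Hspa8, which folds new proteins and drives clathrin uncoating, had 19064 naive and 16444 peak counts, 147 and 108 FPKM (1.27-fold lower, 1.25 to 1.30). The stress-inducible twins were nearly as abundant. Hspa1a had 11225 and 9469 counts (1.30-fold lower, 1.27 to 1.34) and Hspa1b 12294 and 10126 (1.33-fold lower, 1.30 to 1.37). Their transcripts are nearly identical, so the split of reads between them is uncertain; summed, they had 23519 and 19595 counts, a log2 ratio of -0.40. The testis-type Hspa1l sat at the minimum of 50 counts, with 31 and 19, and its interval of 0.981 to 3.36-fold lower reaches past 1. Hspa12a, a divergent Hsp70, went from 375 to 276 counts. Hspa12b (chr2:131127412-131145985), the other divergent Hsp70, known from endothelial cells, had the lowest ratio of all members, with 83 and 23 counts (3.97-fold lower, 2.47 to 6.60). Over all 7 genes the counts went from 43329 to 36630, 1.30-fold lower.

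The partners of Hsp70 in the cytosol split by class. All 5 cytosolic DnaJ B genes lay below 0 (median -0.71), with Dnajb6, at 1022 and 1117 counts, turning above 0 with DESeq2 size factors. Dnajb1 (Hsp40), the main stress-inducible J protein, had 4123 and 2774 counts, 58.2 and 33.5 FPKM, and was 1.63-fold lower (1.56 to 1.71). Dnajb4 had 1529 and 884 counts (1.90-fold lower, 1.75 to 2.07) and Dnajb2, a J protein linked to the ubiquitin system, 1015 and 566 (1.97-fold lower, 1.78 to 2.19). These last genes lay just inside the 2-fold limit and passed it with library totals and upper quartile scaling. Dnajb5 went from 759 to 662 counts. In the DnaJ A class, Dnaja1 had 2835 and 2129 counts (1.46-fold lower, 1.38 to 1.55) and Dnaja4 692 and 461 (1.65-fold lower, 1.46 to 1.86). Dnaja2 had 2629 and 3781 counts (1.31-fold higher, 1.25 to 1.38). Per length, Dnaja2 stood at 2.82 times the FPKM of Dnaja1 in the naive library and at 5.40 times in the peak library. These levels rest on the lengths behind FPKM, 2839 bp for Dnaja2 and 8629 bp for Dnaja1. In counts Dnaja2 lay below Dnaja1 in the naive library and above it in the peak library.

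A similar exchange was seen among the Hsp110 genes. Hsph1 (Hsp105, chr5:149616843-149636498) had 4842 naive and 2300 peak counts, 21.3 and 8.66 FPKM, and was 2.31-fold lower (2.20 to 2.43). Hspa4 (Apg-2), which does the same nucleotide exchange, had 5338 and 8189 counts, 30.9 and 40.5 FPKM, and was 1.40-fold higher (1.35 to 1.45). The ratio of Hspa4 to Hsph1 in FPKM thus went from 1.45 to 4.68. Hspa4l, the least abundant of the family, went from 1018 to 870 counts. Summed, the 3 genes went from 11198 to 11359 counts (0.923-fold after scaling, 0.899 to 0.948), a smaller difference than that of Hsph1 or Hspa4.

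The Hsp90 pair of the cytosol parted as well, by a smaller step. Hsp90aa1, the inducible isoform, had 6557 and 5678 counts, 53.3 and 39.5 FPKM (1.27-fold lower, 1.23 to 1.32). Hsp90ab1, the constitutive isoform, had 28457 and 31627 counts, 303 and 288 FPKM, and its fold of 1.01 (0.995 to 1.03) includes 1. Its ratio of 0.02 falls below 0 with library totals and upper quartile scaling. Hsp90ab1 stood at 5.69 times the FPKM of Hsp90aa1 in the naive and 7.30 times in the peak library.

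To show the stretch of DNA in front of these genes, promoters were taken from RefSeq (GRCm38.p6, the mm10 assembly), which held 56 of the 70 members in 75 windows, each of 250 bases before and 50 after a transcription start. The heat shock element was searched as an inverted pair of units (GAANNTTC or TTCNNGAA, each its own reverse complement and so read on both strands). Shown are 3 genes with lower peak counts, 5′ to 3′ on the coding strand, up to the base before the start, with the element in capitals: Hspb1 from chr5:135887669-135887918 (plus strand), Hspa1a from chr17:34972157-34972406 (minus strand) and Hsph1 from chr5:149636316-149636565 (minus strand).
Hspb1: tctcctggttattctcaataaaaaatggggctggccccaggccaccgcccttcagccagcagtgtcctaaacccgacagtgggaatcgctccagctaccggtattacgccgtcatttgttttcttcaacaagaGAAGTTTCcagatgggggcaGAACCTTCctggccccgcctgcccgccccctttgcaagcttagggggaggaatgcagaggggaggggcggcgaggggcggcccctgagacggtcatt
Hspa1a: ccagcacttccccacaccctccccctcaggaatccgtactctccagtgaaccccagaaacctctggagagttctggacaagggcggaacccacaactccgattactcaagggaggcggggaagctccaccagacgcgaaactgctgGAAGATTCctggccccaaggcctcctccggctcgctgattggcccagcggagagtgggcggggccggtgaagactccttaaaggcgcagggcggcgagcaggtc
Hsph1: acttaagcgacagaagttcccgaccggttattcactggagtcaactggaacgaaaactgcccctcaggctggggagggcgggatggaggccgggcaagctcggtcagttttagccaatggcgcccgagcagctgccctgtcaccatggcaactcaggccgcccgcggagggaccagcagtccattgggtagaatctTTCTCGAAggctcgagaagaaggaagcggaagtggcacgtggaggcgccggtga

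Hspb1 holds the pair at 117 to 110 and at 97 to 90 bases before the start, Hspa1a at 104 to 97 and Hsph1 at 54 to 47. Hspa1b has it at the same place as Hspa1a, 104 to 97 bases before its start. The pair was found in 26.7% of the 75 chaperone windows, against 15.1% of all 32851 RefSeq windows. By compartment it was in 33.3% of 48 cytosolic windows, 7.69% of 13 ER windows and 33.3% of 6 mitochondrial windows. The 14 cytosolic genes with a pair were Cct2, Cct5, Cct6a, Dnaja1, Dnaja4, Dnajb4, Dnajb6, Hspa1a, Hspa1b, Hspb1, Hspb3, Hspb6, Hspb8 and Hsph1. Of these 14, 10 lay below 0, beside 55.3% of all 38 cytosolic members and 50.2% of all genes. Their median log2 ratio was -0.46, and that of the cytosolic genes with a window and no pair was 0.11. Over all compartments 18 members had a pair, and 10 of them lay below 0, beside 35 of all 70 members. The median of these 18 was -0.195, against 0.001 for members with a window and no pair. The order was the reverse in the ER (0.79 for 1 gene with a pair, against -0.01) and in mitochondria (0.44 for 2 genes, against -0.20). Hspa8, Hsp90aa1 and Hsp90ab1 had no window and stand on neither side. In Hspb8 and Cct6a the pair lay after the start, at 3 to 10 and 25 to 32 bases. Ratios of other genes with the pair were not compared, and a part of the element in these values was not tested. The 3-unit form (GAANNTTCNNGAA or TTCNNGAANNTTC, which contains the pair) was in 8% of chaperone windows and 0.603% of all windows. It lay in Dnajb6, Hspd1, Hspe1 and Hsph1, in Hsph1 at 16 to 28 bases after this start. For both forms the shares count some stretches more than once. The overlapping windows of Dnajb6 hold the same stretch, as do those of Hsph1, and Hspd1 and Hspe1 share theirs. A match is a run of letters and not a measured binding site.

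The CCT chaperonin, which folds actin and tubulin, went the other way. All 7 Cct genes had ratios above 0 (median 0.16), though Cct4 turned below 0 with library totals and Cct4 and Cct7 with upper quartile scaling. Cct2 stood out with 4450 naive and 7229 peak counts, 72.5 and 101 FPKM (1.48-fold higher, 1.42 to 1.54). Cct5 had 5103 and 7000 counts (1.25-fold, 1.20 to 1.29) and Cct8 4503 and 6148 (1.24-fold, 1.20 to 1.29). Cct6a went from 4158 to 5102, Cct3 from 5270 to 6422 and Cct7 from 4862 to 5782 counts, each between 1.08-fold and 1.12-fold higher. Cct4 had 5843 and 6630 counts, and its interval of 0.997 to 1.07-fold includes 1. Tcp1, the remaining subunit of the ring, carries another symbol and is no member; it had 3924 and 7136 counts (1.66-fold, 1.59 to 1.72). The 13 prefoldin and chaperonin cofactor genes found, Tcp1 among them, had a median of 0.44. In this list 1 gene was at least 2-fold higher (7.69%, against 11.6% of all genes) and 0 were lower (0%, against 9.35%). Tbca, a tubulin-folding cofactor, had 271 and 697 counts (log2 ratio 1.23), Pfdn1 347 and 719 (0.91) and Pfdn4 209 and 346 (0.59).

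The cytosolic and nuclear DnaJ C genes, whose members serve single tasks, leaned the same way, with 6 of 7 above 0 under each scaling tried (median 0.48). Dnajc17 (chr2:119172500-119208838), a nuclear J protein linked to splicing, had 76 and 188 counts and was 2.25-fold higher (1.72 to 2.98). Dnajc9 (chr14:20384638-20388910), a histone chaperone of replicating chromatin, had 321 and 750 counts, 6.29 and 12.6 FPKM (2.13-fold higher, 1.86 to 2.43), and fell short of 2-fold with library totals and upper quartile scaling. Beside it, all 6 markers of dividing cells were at least 2-fold higher in the peak library, with Mki67 at 469 and 10076 counts, and their part in the Dnajc9 value was not tested. Dnajc2, a J protein of the ribosome, had 768 and 1283 counts (1.52-fold higher, 1.39 to 1.67). Dnajc8, of the spliceosome, had 1049 and 1609, Dnajc21, of ribosome assembly, 427 and 633, and Dnajc7, which links Hsp70 and Hsp90, 4686 and 6094. Dnajc24, of diphthamide synthesis, was the exception with 387 and 339 counts.

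**Figure D2:**
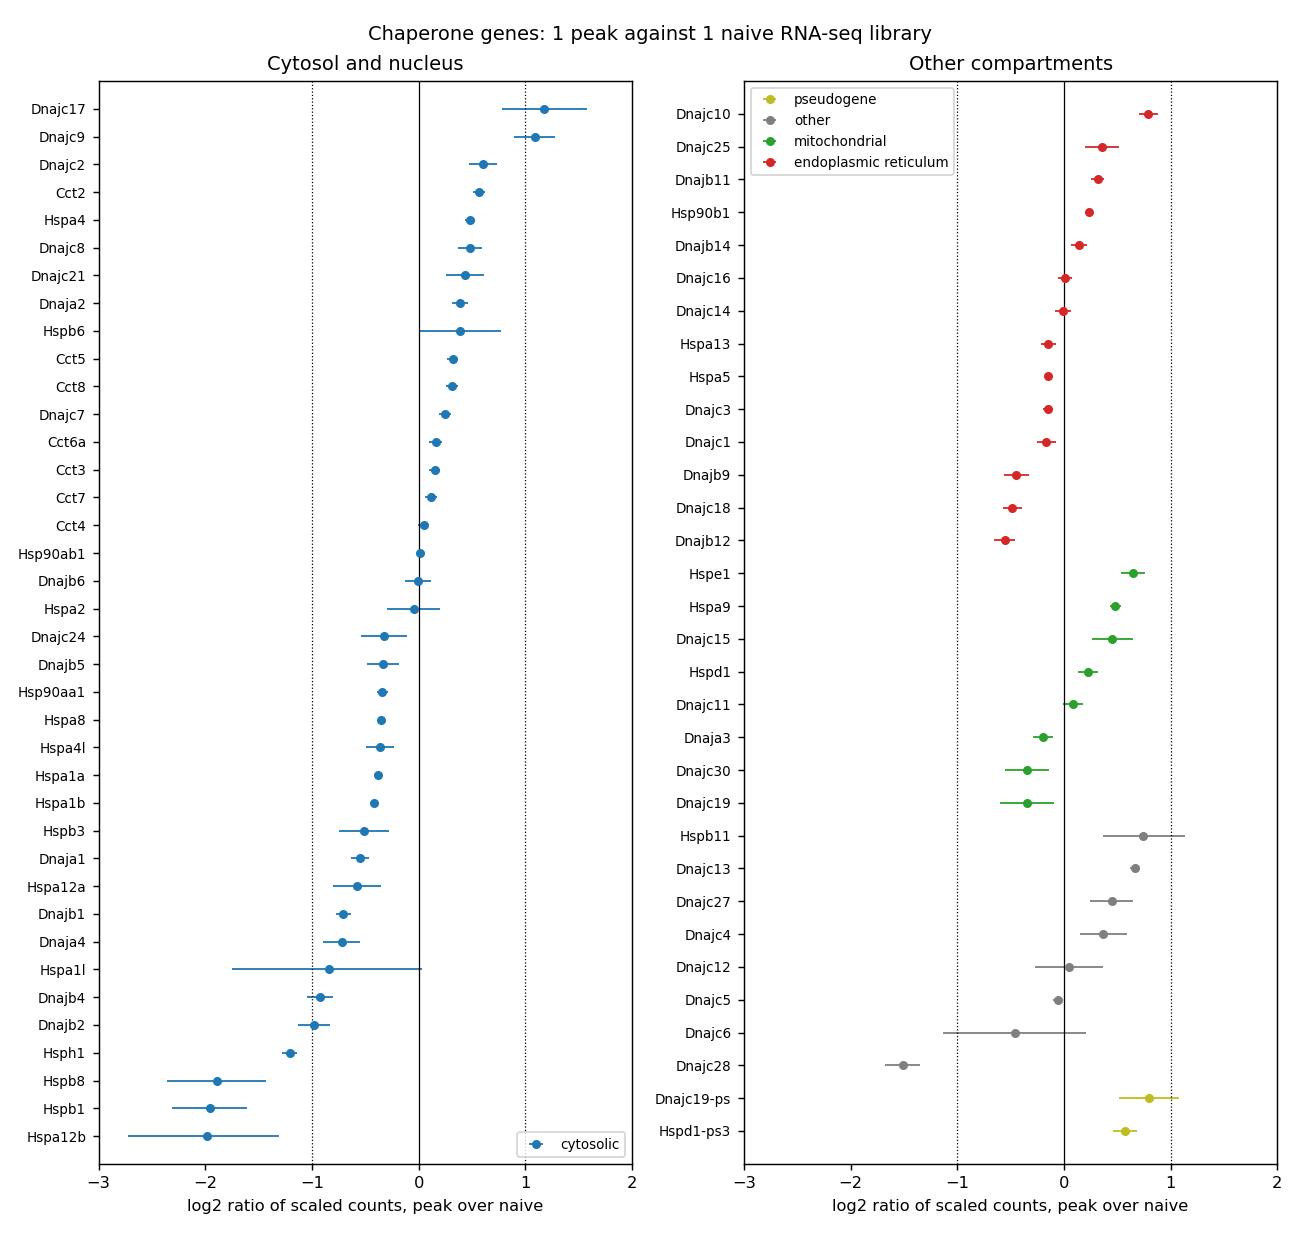
Log2 ratio of scaled counts, peak over naive (horizontal axis), for each chaperone gene, with cytosolic and nuclear genes on the left and the other compartments on the right, coloured by compartment. Points are the ratios of 1 library per condition, lines are exact 95% intervals for counting error, and dotted lines mark 2-fold; Hspa12b, Hspb1, Hspb8, Hsph1 and Dnajc28 lie beyond the lower line and Dnajc17 and Dnajc9 beyond the upper one.

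Around these genes, the list of 23 heat shock factors and cytosolic cochaperones had a median of -0.09. In this list 1 gene was at least 2-fold higher (4.35%, against 11.6% of all genes) and 2 were lower (8.7%, against 9.35%). Bag1, a nucleotide exchange factor of Hsp70, had 1450 and 3870 counts (log2 ratio 1.28). Bag2 had 82 and 41 (-1.13). Fkbp5, an Hsp90 cochaperone of steroid receptors, had 12294 and 6492 counts (-1.06), and Ahsa2, an activator of the Hsp90 ATPase, 1971 and 1208 (-0.84). Hsf1 itself, the heat shock factor, had 1257 and 1185 counts (-0.22) and was named after its values were seen. Heat shock genes and immediate early genes are both known to answer to tissue dissociation, so the latter are given beside them. Of 17 immediate early genes 7 were at least 1.5-fold higher (41.2%, against 20.4% of all genes) and 3 lower (17.6%, against 18.4%). Their median was 0.33. Ier3 had 920 and 3284 counts (log2 ratio 1.70), Egr1 1659 and 3603 (0.98), Fos 5198 and 11210 (0.97) and Klf4 1052 and 579 (-0.997). Their part in the chaperone values was not tested.

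In the ER the most abundant chaperones moved little. Hspa5 (BiP, chr2:34772090-34776529), the Hsp70 of the ER and the sensor-binding chaperone of the unfolded protein response, had 51956 and 51543 counts, 393 and 333 FPKM, the highest level of any member (1.11-fold lower, 1.09 to 1.12). Hsp90b1 (Grp94, chr10:86690841-86705444), the ER Hsp90, had 37254 and 48198 counts, 295 and 327 FPKM (1.18-fold higher, 1.16 to 1.19). Hsp90b1 thus stood at 0.974 times the FPKM of cytosolic Hsp90ab1 in the naive and at 1.13 times in the peak library. Hspa5 stood at 2.68 times the FPKM of Hspa8 in the naive and 3.08 times in the peak library. Hspa13, a microsomal Hsp70, had 3308 and 3284 counts.

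Among the 11 ER J proteins the median was -0.01, and they parted in both directions. Dnajc10 (ERdj5, chr2:80315446-80354055), which reduces wrong disulfides, had 1712 and 3259 counts, 10.9 and 17.8 FPKM, and was the only ER chaperone past 1.5-fold (1.73-fold higher, 1.63 to 1.84). Dnajb11 (ERdj3), a BiP partner on new chains, had 4192 and 5734 counts (1.25-fold higher, 1.20 to 1.30), and Dnajc25 544 and 766 (1.28-fold higher, 1.15 to 1.43). Dnajb9 (ERdj4), a target of the unfolded protein response, had 1394 and 1124 counts (1.36-fold lower, 1.26 to 1.48). Dnajb12 had 1956 and 1465 (1.47-fold lower, 1.37 to 1.57) and Dnajc18 2296 and 1805 (1.40-fold lower, 1.31 to 1.49). These last genes encode ER membrane J proteins, as does Dnajb14, which went from 2548 to 3085 counts (1.10-fold higher, 1.05 to 1.16). Dnajc3 (p58IPK), which restrains the kinase Perk, had 7457 and 7396 counts (1.11-fold lower, 1.07 to 1.14). Dnajc1, Dnajc14 and Dnajc16 had ratios between -0.17 and 0.01.

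The ER stress element (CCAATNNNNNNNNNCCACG, on both strands), through which Atf6 and Xbp1 act on ER chaperone genes, was found in 3 of the 75 chaperone windows (4%), against 0.119% of all RefSeq windows, and in no cytosolic or mitochondrial one. The genes were Hspa5, Hsp90b1 and Dnajc3. Shown are the leading pair, with the element in capitals, from chr2:34771840-34772089 (plus strand) and chr10:86705445-86705694 (minus strand).
Hspa5: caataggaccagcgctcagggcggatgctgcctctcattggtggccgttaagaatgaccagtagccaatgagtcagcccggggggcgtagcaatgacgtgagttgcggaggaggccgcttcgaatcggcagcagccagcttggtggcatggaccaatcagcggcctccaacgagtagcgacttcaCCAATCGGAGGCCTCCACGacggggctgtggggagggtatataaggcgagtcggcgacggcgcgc
Hsp90b1: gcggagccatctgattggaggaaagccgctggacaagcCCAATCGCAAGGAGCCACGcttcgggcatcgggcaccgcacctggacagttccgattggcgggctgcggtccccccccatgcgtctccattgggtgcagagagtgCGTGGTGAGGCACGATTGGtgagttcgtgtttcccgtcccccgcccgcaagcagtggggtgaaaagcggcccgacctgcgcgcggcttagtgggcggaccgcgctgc

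Hspa5 holds the element 65 to 47 bases before its start. Hsp90b1 holds it at 212 to 194 and, on the opposite strand, at 107 to 89. The second form of the element (ATTGG and CCACG with 1 base between, on both strands) was in Dnajb11 alone, 8 to 18 bases after its start (1.33% of chaperone windows, 0.0365% of all). The unfolded protein response element (TGACGTGG) was in Dnajc25 alone (1.33%, against 0.676%). The genes with the main element did not share a direction, with Hspa5 and Dnajc3 at -0.15 and Hsp90b1 at 0.24.

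Other genes of ER folding had a higher median than the ER members of the Hsp and DnaJ series. Of 22 such genes 2 were at least 2-fold higher (9.09%, against 11.6% of all genes) and 0 lower (0%, against 9.35%). Below 0 lay 5 (22.7%, against 50.2% of all genes), and the median was 0.27. Ero1l, the oxidase that recharges disulfide isomerases, had 608 and 1931 counts (log2 ratio 1.53), and Sec61b, of the translocon, 236 and 679 (1.39). Ppib, a proline isomerase, had 6753 and 12526 (0.76), and Sdf2l1, a BiP-bound stabiliser of unfolded chains, 2461 and 3763 (0.48). Of 20 genes of the unfolded protein response 3 were at least 2-fold higher (15%, against 11.6% of all genes) and 0 lower (0%, against 9.35%). Their median was 0.00, with 10 below 0. The 3 higher genes were Asns (23 and 352 counts), Trib3 (10 and 85) and Chac1 (2 and 62). With 2 naive counts, Chac1 had an interval of 7.49 to 238-fold. Herpud1, of ER-associated degradation, was lower, with 10456 and 6900 counts (-0.74).

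In mitochondria the core folding machines had higher peak counts and the J proteins were mixed. Hspa9 (mortalin), the Hsp70 that pulls imported proteins into the matrix, had 4396 and 6750 counts, 35.7 and 47.0 FPKM (1.40-fold higher, 1.35 to 1.45). Hspe1 (Hsp10, chr1:55088148-55091317), the lid of the chaperonin, had 959 and 1652 counts, 20.8 and 30.7 FPKM (1.57-fold higher, 1.45 to 1.70). Hspd1 (Hsp60, chr1:55077833-55088243), its barrel, had 1647 and 2120 counts (1.17-fold higher, 1.10 to 1.25). These 3 genes were above 0 under each scaling tried and together went from 7002 to 10522 counts (1.37-fold, 1.33 to 1.41). The processed copy Hspd1-ps3 had 1051 and 1714 counts, and reads may be split between it and Hspd1; with its counts added, the Hspd1 fold was 1.29 (1.23 to 1.36). The FPKM of Hspe1 was 1.04 times that of Hspd1 in the naive and 1.40 times in the peak library.

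Hspd1 (minus strand) and Hspe1 (plus strand) lie on opposite strands and overlap at their first ends; the stretch before the Hspe1 start is shown (chr1:55087898-55088147, plus strand). The capitals mark overlapping 3-unit heat shock elements, 89 to 72 bases before the Hspe1 start. They lie 144 to 127 bases before the inner of the Hspd1 starts in RefSeq (window chr1:55087883-55088182), and the window of its outer start (chr1:55088194-55088493) held no element searched for.
Hspe1: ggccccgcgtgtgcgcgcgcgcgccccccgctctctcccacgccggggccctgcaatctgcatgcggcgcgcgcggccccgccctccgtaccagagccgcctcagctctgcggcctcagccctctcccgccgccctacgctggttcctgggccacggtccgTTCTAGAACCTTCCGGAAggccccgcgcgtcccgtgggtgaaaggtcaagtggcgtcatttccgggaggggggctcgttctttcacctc

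The letters of the heat shock element are thus found both in front of genes with lower peak counts (Hspb1, Hsph1, Hspa1a) and in front of this pair with higher ones. The 5 mitochondrial J proteins had a median of -0.20. Dnajc15, of the import motor, had 378 and 569 counts (1.37-fold higher, 1.20 to 1.56). Dnajc19, its relative, had 284 and 245 (1.27-fold lower, 1.07 to 1.52), but the copy Dnajc19-ps had 159 and 303, and with its counts added the log2 ratio turned from -0.35 to 0.17. Dnaja3 (Tid1) had 1868 and 1790 counts, Dnajc30 424 and 366 and Dnajc11 1662 and 1940. Of 20 genes of mitochondrial import and quality control none passed 2-fold, beside 11.6% of all genes higher and 9.35% lower. At least 1.5-fold higher were 2 (10%, against 20.4% of all genes), and the median was 0.27. Atf5, a regulator of the mitochondrial unfolded protein response, had 112 and 241 counts (log2 ratio 0.97), and Hscb, the J protein of iron-sulfur cluster assembly, 237 and 478 (0.87). Timm23 (190 and 313, 0.58) and Tomm70a (2547 and 4031, 0.53), of protein import, came next.

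**Figure D3:**
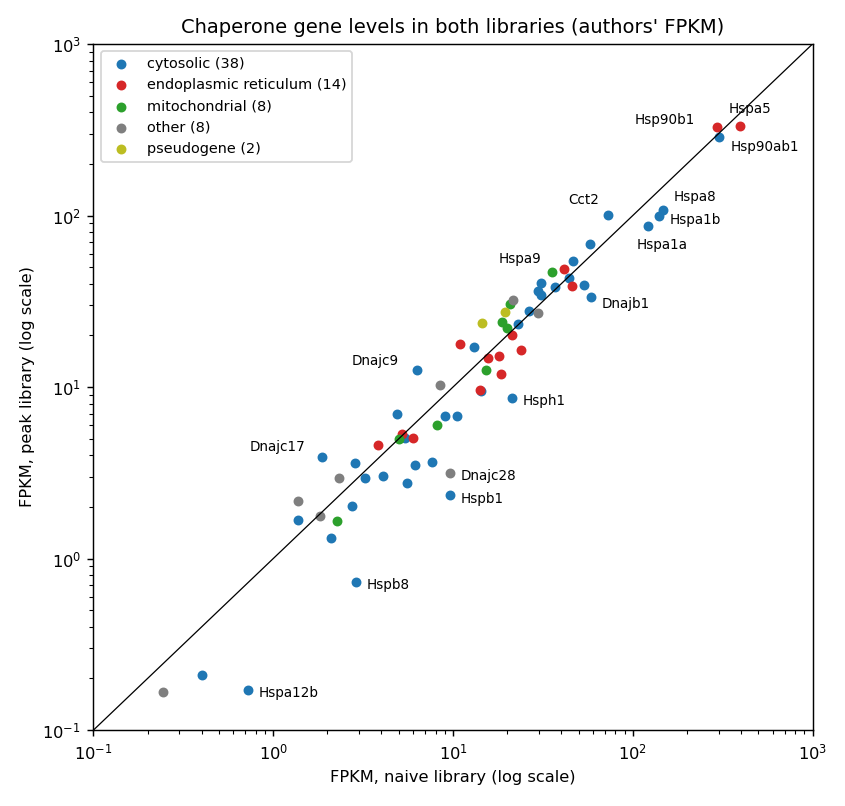
FPKM of each chaperone gene in the naive library (horizontal axis, log scale) and the peak library (vertical axis, log scale), coloured by compartment, with the diagonal marking equal values. Hspa5, Hsp90ab1 and Hsp90b1 stand at the top between 288 and 393 FPKM in both libraries, and Hspa12b, Hspb8, Hspb1, Dnajc28 and Hsph1 lie farthest below the diagonal.

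Of the 8 genes kept apart, Dnajc28 (chr16:91614257-91618999) was the one past 2-fold, with 1070 and 412 counts (2.85-fold lower, 2.55 to 3.21). Dnajc13, which works on endosomes, was the most abundant, with 8074 and 14041 counts, and was 1.58-fold higher (1.54 to 1.63). Hspb11, a part of the intraflagellar transport complex in spite of its name, had 89 and 164 counts (1.68-fold higher, 1.29 to 2.20). Dnajc5, the cysteine string protein of vesicle release, had 6477 and 6858, and Dnajc6 (auxilin), at the bottom of the range, 45 and 36. Dnajc27, Dnajc4 and Dnajc12 had ratios between 0.05 and 0.45. Of the 21 matching genes below the minimum, 12 had no count in either library, among them all 9 pseudogenes. The nearest to the minimum were Dnajb13 (4 and 25 counts), Dnajb7 (16 and 13) and Cct6b (13 and 14).

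DNA methylation was then examined at the same genes. The deposited MiGS values are signal in windows of 50 bp and could be turned back into whole reads, 30424742 and 36501153 summed over windows for the naive libraries and 43970332 and 35285601 for the peak libraries. A promoter was taken as 1000 bases before to 500 after a RefSeq start for 56 members and as both gene ends for the other 14. Of the 70 chaperone promoters 45 held no read in any of the 4 libraries, 9 held 1 to 19 and 16 held at least 20. Under 20 reads were thus 77.1%, against 61.3% of all genes. The regions compared are unlike: both gene ends, mostly a longer stretch, were taken for 21294 of 47042 genes but for 14 of 70 members. CpG sites were counted in the 300-base RefSeq windows, with the richest window taken for each gene. The median was 27 in the 38 genes with a window and no read. It was 22 in 8 genes with 1 to 19 reads and 16.5 in 10 genes with at least 20 reads. Counted over single windows, the median was 25 in chaperone windows and 7 in all RefSeq windows. The promoters of Hsph1, Dnajb2 and all 7 Cct genes were among those with no read. MiGS reads only methylated DNA and gives no level where nothing is captured.

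No chaperone promoter was called different between naive and peak. With limma on log2(signal + 1), two-sided and adjusted by Benjamini-Hochberg over 18201 promoters with at least 20 reads, 0 of 16 chaperone promoters were called, against 0% of all promoters; 2 had an unadjusted p under 0.05, as had 799 of all promoters. edgeR and DESeq2 on the recovered reads also called 0, with 1 chaperone promoter each under 0.05 unadjusted. The Hspb8 promoter had a signal per kb of 23.5 and 82.1 (naive) against 11.0 and 23.4 (peak), a log2 difference of -1.41 ± 0.68 (SE, limma, adjusted p = 0.882). The lower naive and the higher peak library had nearly the same value, and the naive libraries lay farther apart than the peak ones. The ends of Dnajc19-ps had 87.4 and 289 (naive) against 30.7 and 93.5 (peak) with a difference of -1.56 ± 0.76 (SE, limma adjusted p = 0.882), and the groups overlapped. Hspb3 stood at 60.6 and 24.0 (naive) against 68.5 and 22.9 (peak). In each of these 3 regions libraries of the same group differed by more than 1.5 times.

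The Hspb8 promoter is shown with its CpG sites in capitals (13 in the 300-base window, against medians of 25 in chaperone windows and 7 in all RefSeq windows), from chr5:116422865-116423114 (minus strand), up to the base before the start. Among the members at least 2-fold lower in the RNA it had the most MiGS reads in its promoter.
Hspb8: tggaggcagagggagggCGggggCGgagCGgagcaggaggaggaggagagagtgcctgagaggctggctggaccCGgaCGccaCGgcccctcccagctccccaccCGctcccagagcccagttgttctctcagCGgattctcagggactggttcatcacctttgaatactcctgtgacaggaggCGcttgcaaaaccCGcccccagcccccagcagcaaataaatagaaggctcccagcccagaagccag

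Gene bodies (the gene without 500 bases at both ends) carried more signal and gave no call either. Of 26762 bodies with at least 20 reads limma called 0, and of 62 chaperone bodies also 0, against 0% of all; 3 chaperone bodies and 1091 of all bodies had an unadjusted p under 0.05. edgeR and DESeq2 called 0 as well, with 3 and 5 chaperone bodies under 0.05 unadjusted. The body of Hspa1l had the most signal per kb, 169 and 451 for naive against 81.2 and 203 for peak (-1.10 ± 0.45, limma adjusted p = 0.977). Hspa12b had 56.9 and 129 for naive against 32.3 and 59.9 for peak (-0.96 ± 0.42, limma adjusted p = 0.977). In both genes the higher peak library passed the lower naive one. Dnaja3 had 3.21 and 1.85 for naive against 8.56 and 4.58 for peak (1.35 ± 0.58, limma adjusted p = 0.977).

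The chaperone genes with the most signal are read beside other regions of high signal. In the 2677 bodies with the most signal per kb the median log2 difference was -0.52, with 86% lower, against -0.08 in all bodies. The groups did not separate there: the median log2 signal was 8.55 and 9.37 for the naive libraries against 8.06 and 8.71 for the peak libraries, with naive replicate 2 the highest. These bodies held Cct2, Dnajb2, Dnajc28, Hspa12b, Hspa1l and Hspb6. In the 1821 promoters with the most signal, which held Dnajc19-ps, the median was -0.85 with 95.2% lower, against 0.07 in all promoters, and the libraries again overlapped (7.74 and 8.85 for naive, 7.07 and 7.90 for peak). Bodies of Hspb1, Hspe1, Hspa8 and Dnajc30 held no read in any library, and that of Hspa5 held 12 in naive replicate 2, 1 in peak replicate 2 and none in the other libraries.

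**Figure D4:**
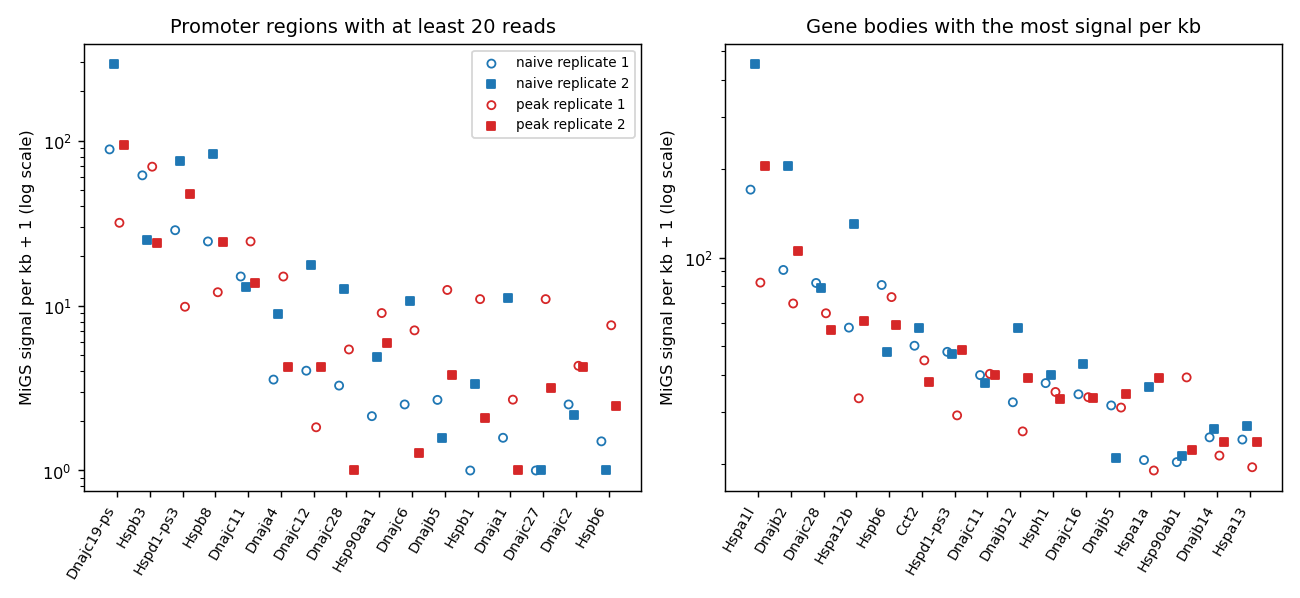
MiGS signal per kb plus 1 (vertical axes, log scale) in the 4 libraries for the 16 chaperone promoter regions with at least 20 reads (left) and the 16 chaperone gene bodies with the most signal (right), naive in blue and peak in red, replicate 1 as open circles and replicate 2 as filled squares. The libraries of each group lie far apart at Dnajc19-ps and Hspb8 on the left and at Hspa1l, Dnajb2 and Hspa12b on the right, and no region was called.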

How the data were processed

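RNA-seq values were raw counts per Ensembl gene and FPKM computed by the authors, per the file headers; a stranded kit with ribosomal RNA depletion was used, per the labels' protocols, and the sources used here do not say if reads were counted by strand, so overlapping genes and close copies are uncertain. The deposited MiGS files hold signal per 50 bp window, and 100% of values were whole reads divided by 1 factor per library within a tolerance of 0.001. Windows missing from a file were set to 0 reads, 1 fragment can count in several neighbouring windows, and chromosomes 1 to 19 were used. Bowtie2, TopHat, featureCounts, edgeR and build mm10 are named in the submitters' processing notes, without roles or versions.

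Symbols were matched through the Ensembl gene identifiers, and gene positions and promoters came from RefSeq (GRCm38.p6). Of all rows 506 had no symbol and could not be members. The members, their compartments and all gene lists were chosen with earlier results of these data known. Counts were scaled by TMM (edgeR 4.0.16) over genes with at least 50 counts, with 0.5 added to each count for log2 ratios; folds are plain ratios of scaled counts. The authors' FPKM gave the same ratio as counts over library totals in 19785 of 19785 genes with counts in both libraries (tolerance 1e-06). MiGS promoters and bodies with at least 20 reads were tested by limma 3.58.1 with a variance trend at an adjusted p of 0.05; counts recovered from the signal also went through edgeR's quasi-likelihood test and DESeq2 1.42.0. The labels do not say if both MiGS libraries of a condition came from the same cells, so the p-values cover a spread between libraries that may be technical. Named were members past 2-fold, in each compartment the 3 highest and 3 lowest ratios and the 3 highest FPKM, all Hsp90, CCT and classical Hsp70 genes, and examples of each family. From each list of other pathway genes up to 4 with the largest absolute log2 ratio were named, besides Hsf1. They are thus the extremes of their lists. Steps were tested on simulated data. R 4.3.3 and Python 3.11.15 were used.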

Additional observations from a re-analysis of the deposited data

How the results depend on the processing

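The count of chaperone genes at least 2-fold higher, 2 with TMM, was 1 with library totals, with upper quartile scaling and with the authors' FPKM, 0 without the DnaJ C genes, which include both, and 3 with a minimum of 10 counts; the count of lower genes was 4 to 7. The ER median was -0.17 with library totals, -0.22 with upper quartile scaling and -0.17 with FPKM, and the mitochondrial median 0.021 with upper quartile scaling. Without the DnaJ C genes the mitochondrial median was 0.36 and its distance to the cytosolic one 0.71. The ER and cytosolic medians changed order with a minimum of 200 counts and with unassigned genes added to the cytosol. Beyond what each setting changes by construction, the cause was not tested.

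In MiGS the replicate numbers recur in both groups without a stated meaning, and 2 pairs are too few to settle it; same-numbered libraries deviated together with r = 0.183 in promoters and 0.0934 in bodies. With a replicate block limma called 1135 promoters, 1 of them of a chaperone gene (Dnajc19-ps), and 223 bodies, 1 of them Hspa1l. The edgeR fit with a replicate block called 584 promoters, again 1 of a member, and 1071 bodies, 2 of them members (Hspa12b and Hspa1l). Leaving out each MiGS library in turn gave 0 to 0 calls for chaperone promoters, chaperone bodies, all promoters and all bodies, with the remaining library of that group assumed to vary like the other group. Other pseudocounts and read minimums also gave 0. Genes near 50 counts have intervals wider than 2-fold, and regions with few MiGS reads cannot show a difference.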
